A study of Mus musculus with 31 samples.

Results

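The libraries described here came from DN1 thymocytes, the earliest double-negative stage of T cell development, whose E2A and HEB genes were floxed, on days 5 and 7 of culture. They were taken by their labels: 2 libraries of day 7 and 2 of day 5, which is 4 of the 31 RNA-seq samples of the series. The groups were chosen with earlier results of these data known. The cells were C57BL/6 thymocytes that carried R26-CreERT2, R26-stop-tdTomato and the floxed alleles E2Af/f and HEBf/f. They were grown on OP9-DL1 stroma in medium with stem cell factor, IL-7 and IL-2. Tamoxifen activates the Cre recombinase, which removes the floxed E2A and HEB alleles and switches on tdTomato, and tdTomato-positive cells were sorted. The series' design text puts the tamoxifen at day 4, and so do the labels of day 5, but the labels of the DN1 cultures of day 7 put the 4-OHT at day 7. The 2 groups compared were therefore floxed DN1 cells of day 7 and floxed DN1 cells of day 5, with 2 libraries each, called replicates a and b by their letters. DN1 control cells of the same days (R26-CreERT2 and R26-stop-tdTomato, with neither floxed allele, 2 libraries a day) and floxed DN3 cells of the same days (a later, T-committed double-negative stage, 2 libraries a day) served for comparison. Both DN1 genotypes carried the Cre and received the drug. No label ties a letter to an animal or a culture, so the p-values measure the spread between these samples, which may be technical.

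E2A (encoded by Tcf3) and HEB (encoded by Tcf12) are E proteins, helix-loop-helix transcription factors that bind E-box sequences and drive the T cell program in the thymus. The Id proteins dimerise with E proteins and keep them from DNA, and Id2 is needed by all innate lymphoid cells. Group 2 innate lymphoid cells (ILC2) carry no antigen receptor, depend on the factors GATA3 and RORα, carry the costimulatory receptor ICOS and secrete IL-13 and IL-5.

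The targeted genes were read first. Tcf12 (mm10 chromosome 9, 71842688 to 72111871, minus strand) had 110 and 103 CPM (the count scaled to the library total) in replicates a and b of day 7, against 94.0 and 121 CPM on day 5. In the controls it had 273 and 285 CPM on day 7 and 213 and 203 CPM on day 5, so every floxed library lay below every control library. Tcf3 (chromosome 10, 80409514 to 80433647, minus strand) had 38.3 and 16.2 CPM in floxed cells of day 7 and 63.2 and 35.6 CPM on day 5, against 81.6 and 94.6 CPM in controls of day 7 and 80.7 and 88.6 CPM in controls of day 5. Both were thus already lower than in the controls on day 5, the first day of the comparison. Between the days, neither passed the test in floxed cells: the log2 change was -0.01 ± 0.11 (standard error) for Tcf12 and -0.85 ± 0.37 for Tcf3, with adjusted p of 0.979 and 0.110 (edgeR quasi-likelihood test, Benjamini-Hochberg adjustment over all genes tested, which holds for every adjusted p below). Tcf3 passed without replicate a of day 7 (0.00757), where day 7 rests on replicate b alone. The counts run over the whole gene and so also take in transcripts of a deleted allele.

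The 3 markers read here, Id2, Icos and Il13, stood well apart between the days. Other genes of ILC2, given below, did not all rise. Id2 (chromosome 12, 25093799 to 25097140, minus strand) had 496 and 908 CPM on day 7, against 56.4 and 78.8 CPM on day 5. Icos (chromosome 1, 60977927 to 61000320, plus strand) had 246 and 444 CPM on day 7, against 13.8 and 43.8 CPM on day 5. Il13 (chromosome 11, 53631324 to 53634702, minus strand) had 13.6 and 35.4 CPM on day 7, against 0.282 and 0.992 CPM on day 5, where the libraries held 2 and 7 reads of it. None of these groups overlapped. That adds little to a call, here and below: of 1811 genes called higher on day 7, 55 overlapped. Of 1438 called lower, 6 did. Each of the 3 genes rose: Id2 by 3.39 ± 0.22 on the log2 scale (adjusted p = 2.94e-08), Icos by 3.60 ± 0.42 (1.43e-05) and Il13 by 5.25 ± 0.73 (8.03e-05). All 3 also passed with any 1 of the 4 floxed libraries left out and with those 4 libraries fitted alone.

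Depth was even, at 7774315 and 7506483 counts on day 7 and 7088429 and 7057912 counts on day 5, but single libraries stood apart. Replicate b of day 7 held muscle RNA: the summed level of 18 skeletal muscle markers was 109.5 CPM in replicate a and 10370 CPM in replicate b of day 7, against 72.23 and 15.44 CPM on day 5. All 17 muscle markers tested were called higher on day 7, and without replicate b only Neb was. With all libraries, 5 of 15 stromal markers were called lower and 1 higher. The median log2 change of the 15 was -1.09, or -2.49 without replicate b of day 7. For comparison, 11.9% of all genes were called higher and 9.48% lower with all libraries. The 16 stromal markers summed to 88.75 and 208 CPM on day 7, against 256.1 and 258.7 CPM on day 5. Myeloid markers summed to 73.06 and 50.22 CPM on day 7, against 285.7 and 29.61 CPM on day 5, where S100a8, a neutrophil protein, alone made up 122 CPM of replicate a. Of 14 myeloid markers, 12 and 11 had a count on day 7, against 12 and 10 on day 5. B cell markers summed to 3.997 to 9.452 CPM and mast cell and basophil markers to 260.2 to 342.6 CPM in the 4 libraries, with Fcer1a and Mcpt4 at 0 counts in all of them and Cpa3 alone at 308 and 258 CPM on day 7, against 305 and 340 CPM on day 5. The part of these cells in the results below was not tested beyond leaving libraries out. In bulk samples, fewer cells of a type and less RNA per cell cannot be told apart.

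**Figure D1:**
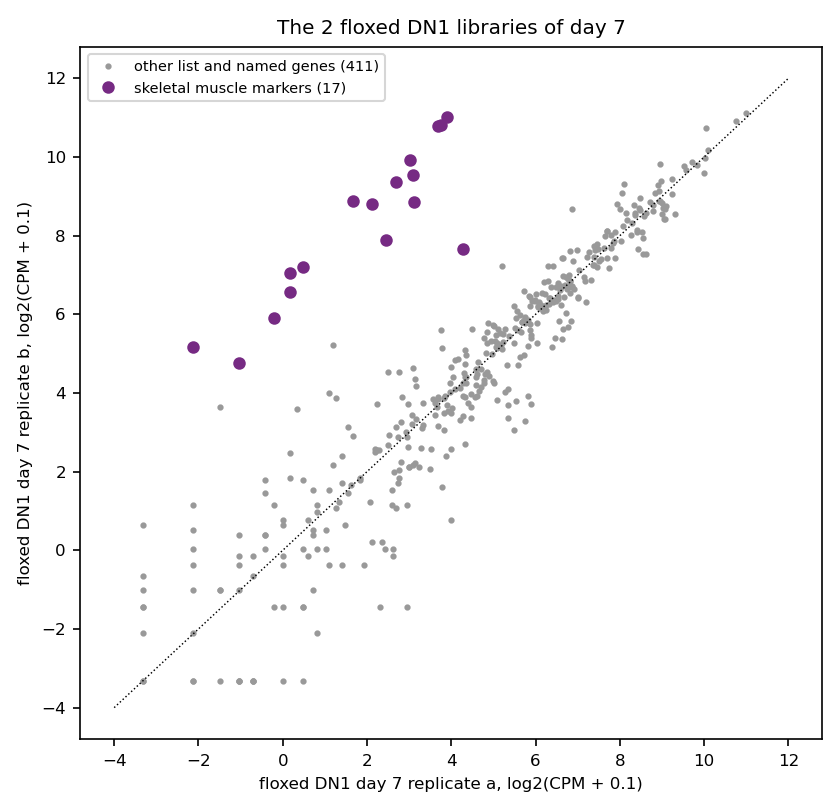
Level of each gene named or listed in floxed DN1 cells of day 7, as log2(CPM + 0.1), in replicate a (x axis) against replicate b (y axis). Purple points are skeletal muscle markers, which lie above the dotted line of equal levels, while the grey points follow it.

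A total of 15172 genes were tested, with the spread between replicates estimated from all 24 culture libraries. Of these, 11.9% were called higher and 9.48% lower on day 7 than on day 5 in floxed DN1 cells, at an adjusted p under 0.05, which is 1811 and 1438 genes. Because of the muscle RNA, a stricter call also asked that a gene passed without replicate b of day 7 and that both day 7 libraries lay beyond both day 5 libraries: 5.33% were then higher and 3.33% lower, or 809 and 505 genes. With each of the 4 libraries left out in turn, 570 genes rose and 327 fell every time. The counts rest on single libraries: 5458 genes passed without replicate a of day 7, 1519 without replicate b of day 7, 1458 without replicate a of day 5 and 2208 without replicate b of day 5. With the spread estimated from the 4 floxed libraries alone, 129 genes passed as higher and 4 as lower, so that many of the calls below are lost in that fit. Below, a gene is called steady where it passed with each of the 4 libraries left out in turn, in the fit of all culture libraries, and the word says nothing of the fit of 4. The median change of all genes was 0.00 on the log2 scale.

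The stretches before a RefSeq transcript start of 5 of the genes that moved are shown, because E proteins bind E-boxes. Each is the part free of annotated exons of the 250 bases before the transcript start (RefSeq, GRCm38.p6), read 5′ to 3′ on the strand of the gene. Capitals mark the E-box words CAGCTG and CAGGTG or its reverse complement CACCTG, searched on both strands. Id2, Il13 and Lta rose and Cd34 and Lyl1 fell.
Id2, chr12:25096254-25096342, minus strand: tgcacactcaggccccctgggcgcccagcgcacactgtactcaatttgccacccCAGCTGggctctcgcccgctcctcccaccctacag
Il13, chr11:53634703-53634952, minus strand: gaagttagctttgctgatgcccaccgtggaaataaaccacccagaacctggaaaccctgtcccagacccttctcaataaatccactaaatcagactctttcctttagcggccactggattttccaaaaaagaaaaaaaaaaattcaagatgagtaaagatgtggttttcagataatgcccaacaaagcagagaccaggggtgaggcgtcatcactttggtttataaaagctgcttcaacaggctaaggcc
Lta, chr17:35205352-35205601, minus strand: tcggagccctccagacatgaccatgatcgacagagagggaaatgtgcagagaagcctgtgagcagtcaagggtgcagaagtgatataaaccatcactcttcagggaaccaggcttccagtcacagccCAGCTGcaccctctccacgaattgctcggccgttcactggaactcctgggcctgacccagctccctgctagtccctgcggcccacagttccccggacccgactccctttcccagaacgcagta
Cd34, chr1:194938571-194938818, plus strand: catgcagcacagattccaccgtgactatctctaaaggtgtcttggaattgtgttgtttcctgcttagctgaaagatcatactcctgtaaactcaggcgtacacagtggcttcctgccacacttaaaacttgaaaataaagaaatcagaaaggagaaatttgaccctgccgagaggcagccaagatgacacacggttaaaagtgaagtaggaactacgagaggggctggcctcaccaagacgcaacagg
Lyl1, chr8:84701207-84701456, plus strand: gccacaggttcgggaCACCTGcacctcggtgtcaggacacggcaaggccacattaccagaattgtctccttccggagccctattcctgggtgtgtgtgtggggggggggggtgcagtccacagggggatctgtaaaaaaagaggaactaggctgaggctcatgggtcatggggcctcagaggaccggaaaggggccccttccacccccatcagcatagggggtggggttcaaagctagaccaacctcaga
Id2 and Lta held a CAGCTG, 196 and 123 bases before the start used. Lyl1 held a CACCTG 235 bases before it, and the windows of Il13 and Cd34 held neither word. The Id2 window lies inside the span given above for the gene, which comes from GENCODE. Its RefSeq start therefore lies within that span, and the window is not upstream of the whole gene. Over all 32841 promoters of the table, 27.7% held 1 of the words in these 250 bases, 13.0% CAGCTG and 17.2% CAGGTG or CACCTG. Over the 12934 promoters of the genes tested here, 25.3% held 1 of the words. Among the 15 genes with the largest rises given below, 11 matched the table, and 7 of their 17 promoters (41.2%) held 1 of the words. Among the 15 genes with the largest falls, 11 matched, and 5 of their 15 promoters (33.3%) did. A match describes these letters and is not a bound site.

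Of 19 transcription factors of the ILC2 lineage tested, 11 were called higher and 2 lower on day 7, beside 11.9% and 9.48% of all genes. In the controls, where 6.56% of all genes were called higher and 6.35% lower between the same days, 7 of the 19 were called higher and none lower. The floxed change differed from the control change as higher in 1 and as lower in 2, beside 0.837% and 0.758% of all genes. Without replicate b of day 7, 10 were higher and none lower, and with any 1 of the 4 libraries left out the number higher was 9 to 12. The median change of the list was 0.69 on the log2 scale. Steady among the risers, beside Id2, were 8 others: Rora, Maf, Lmo4, Tox, Ets1, Klf2, Nfil3 and Rxrg. Rora encodes RORα, without which ILC2 do not form. It had 605 and 537 CPM on day 7, against 79.3 and 223 CPM on day 5 (log2 change 1.93 ± 0.35, adjusted p = 0.000739). Maf, a bZIP factor of cytokine-producing lymphocytes, had 759 and 809 CPM on day 7, against 79.1 and 218 CPM on day 5 (2.41 ± 0.31, 4.74e-05). In both genes replicate b of day 5 lay above replicate a of day 5, and both day 7 libraries lay above either.

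Lmo4, a LIM-domain cofactor, had 2056 and 2244 CPM on day 7, against 556 and 1014 CPM on day 5 (log2 change 1.46 ± 0.23, adjusted p = 0.000194). Nfil3, a bZIP factor that innate lymphoid precursors need, had 7.72 and 13.1 CPM on day 7, against 2.12 and 2.41 CPM on day 5 (2.20 ± 0.36, 0.000303). Rxrg, which encodes a retinoid X receptor, had 17.8 and 29.0 CPM on day 7, against 0.564 and 1.98 CPM on day 5 (4.20 ± 0.59, 0.000107). The day 7 libraries lay above the day 5 libraries in each. Tox rose by 0.98, Ets1 by 1.07 and Klf2 by 1.65 on the log2 scale, with adjusted p of 8.67e-05, 0.000407 and 0.00172. With the 4 floxed libraries fitted alone, only Id2 and Rxrg of these 9 still passed.

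The factors that ILC2 share with T cells did not move as a block. Gata3 had 542 and 409 CPM on day 7, against 219 and 372 CPM on day 5 (log2 change 0.69 ± 0.20, adjusted p = 0.0165). That call was lost without replicate a of day 5 (adjusted p = 0.254) and without replicate a of day 7 (0.0844). Tcf7, which encodes TCF-1, had 540 and 347 CPM on day 7, against 682 and 691 CPM on day 5 (-0.63 ± 0.15, 0.00666), a call lost without replicate b of day 7 (0.116). Gfi1, a zinc finger repressor, had 20.1 and 14.8 CPM on day 7, against 33.9 and 27.2 CPM on day 5 (-0.80 ± 0.19, 0.00529), and its call was lost without replicate b of day 7 (0.0778) or replicate a of day 5 (0.0795). Bcl11b, which holds cells in the T lineage and also serves ILC2, had 523 and 416 CPM on day 7, against 442 and 554 CPM on day 5, and the groups overlapped (-0.08 ± 0.12, 0.685).

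**Figure D2:**
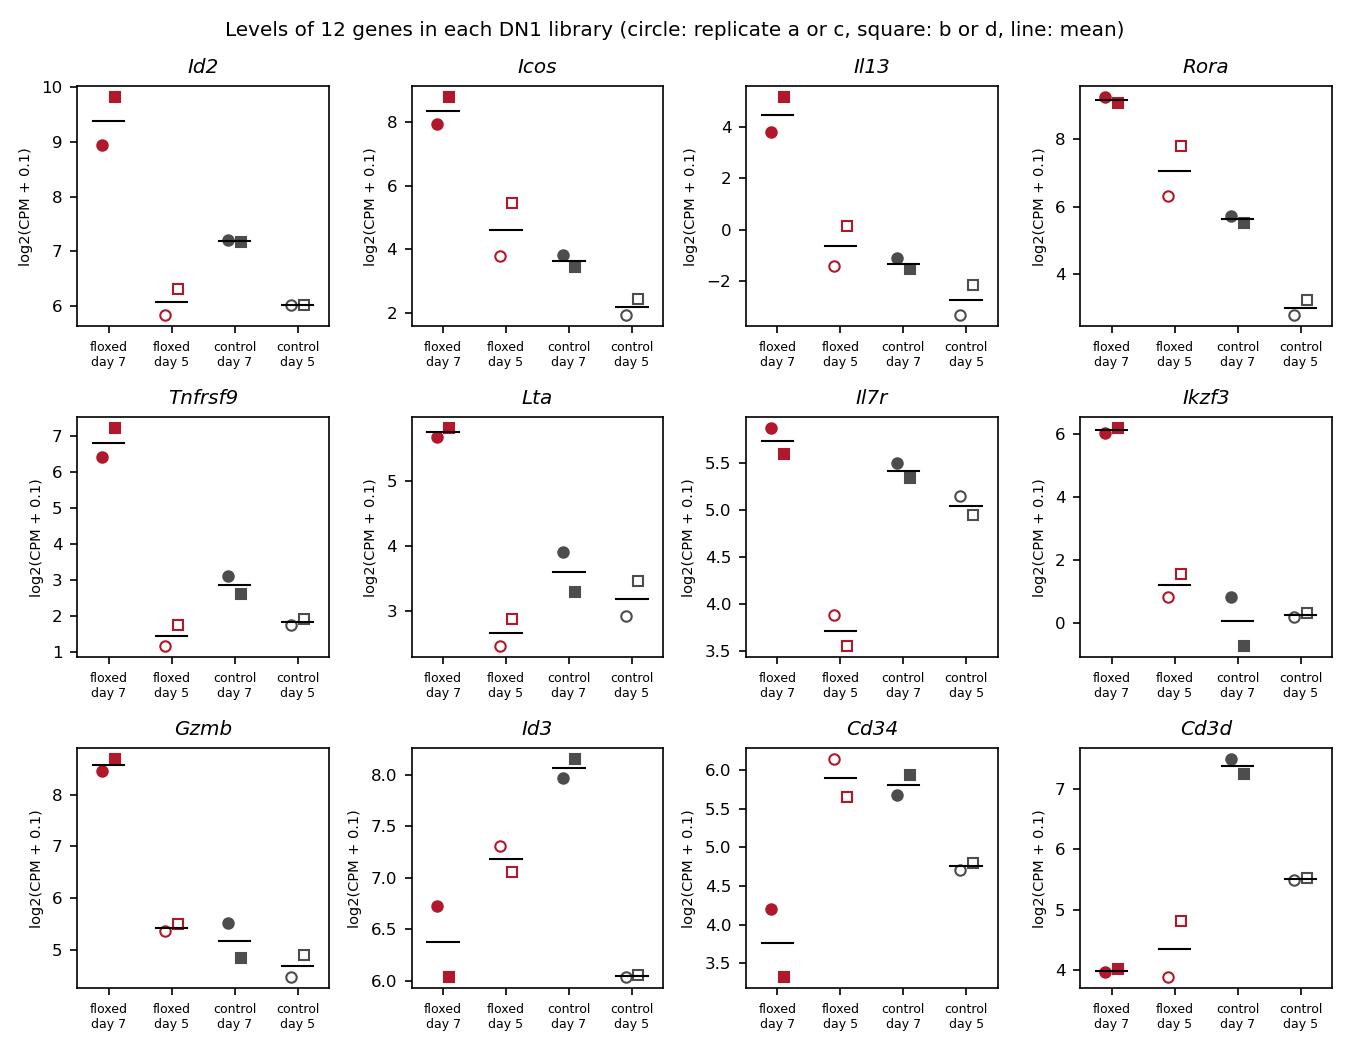
Levels of 12 genes as log2(CPM + 0.1) in each DN1 library, with floxed day 7, floxed day 5, control day 7 and control day 5 from left to right and a vertical axis of its own in each panel. Filled symbols are day 7 and open symbols day 5; Id2, Icos, Il13, Tnfrsf9 and Lta are higher in both floxed libraries of day 7 than in the other 6 libraries, while Id3, Cd34 and Cd3d are higher on day 7 in the controls.

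Of 27 receptors and surface molecules of ILC2 tested, 13 were called higher and 1 lower on day 7, and 13 did not pass. Without replicate b of day 7 it was 11 and none, and with any 1 library left out 11 to 14 were higher. With the 4 floxed libraries fitted alone, 7 passed as higher. Between these days 11.9% of all genes were called higher and 9.48% lower in floxed cells, and 6.56% and 6.35% in controls. In the controls 5 of the 27 were called higher and none lower. The difference between the genotypes passed for 4 as higher in floxed cells and none as lower, beside 0.837% and 0.758% of all genes. The median change was 1.45. The steady rises, beside Icos, were Tnfrsf9, Tnfrsf18, Tnfrsf25, Il18r1, Cysltr1, Il2rb, Il7r, Il17rb and Pdcd1. Tnfrsf9 encodes the costimulatory receptor 4-1BB (chromosome 4, 150914562 to 150946102, plus strand). It had 84.8 and 150 CPM on day 7, against 2.12 and 3.26 CPM on day 5 (log2 change 5.46 ± 0.43, adjusted p = 1.97e-07). Tnfrsf18 encodes GITR and had 276 and 640 CPM on day 7, against 44.6 and 60.6 CPM on day 5 (3.14 ± 0.36, 1.20e-05). Tnfrsf25 encodes DR3, the receptor of TL1A, and had 8.75 and 20.4 CPM on day 7, against 0.705 and 0.992 CPM on day 5 (4.09 ± 0.55, 5.70e-05). In all 3 of these TNF receptor genes, replicate b of day 7 lay above replicate a.

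The cytokine receptor genes of this list did not all pass. Il18r1, a chain of the IL-18 receptor, had 31.5 and 52.9 CPM on day 7, against 2.12 and 3.12 CPM on day 5 (log2 change 4.02 ± 0.45, adjusted p = 1.04e-05). Il2rb, the signalling chain shared by the IL-2 and IL-15 receptors, had 100 and 174 CPM on day 7, against 22 and 34.3 CPM on day 5 (2.30 ± 0.37, 0.000319). Il7r, the IL-7 receptor alpha chain, had 58.4 and 48.2 CPM on day 7, against 14.7 and 11.6 CPM on day 5 (2.03 ± 0.24, 1.83e-05). IL-2 and IL-7 were both in the medium. Il2ra, the alpha chain of the IL-2 receptor, had 1096 and 1160 CPM on day 7, against 1020 and 888 CPM on day 5, a difference that did not pass (0.25 ± 0.10, 0.0762) but did without replicate a of day 7 (0.0425) or by DESeq2 (0.0483). Il17rb, which binds IL-25, rose by 0.87 ± 0.12, with 113 and 115 CPM on day 7 against 60.9 and 64.5 CPM on day 5 (7.93e-05).

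Cysltr1, a receptor of cysteinyl leukotrienes, had 126 and 199 CPM on day 7, against 13.4 and 36.5 CPM on day 5 (log2 change 2.71 ± 0.38, adjusted p = 8.40e-05). Pdcd1, which encodes PD-1, rose by 1.45 ± 0.28 (0.00154). Cd28 had 58.5 and 73.8 CPM on day 7, against 18.1 and 30.6 CPM on day 5 (1.45 ± 0.31, 0.00285), a call lost without replicate a of day 5 (0.0643). The receptor for IL-33 was close to absent: Il1rl1 had 0 and 4 counts on day 7, against 0 and 1 count on day 5. A count of 0 allows up to 0.386 CPM in replicate a of day 7 and 0.423 CPM in replicate a of day 5, for counting error only. Freshly sorted thymic ILC2 of the same series, from mice lacking E2A and HEB, had 144 and 385 CPM of it.

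Among type 2 cytokines and effectors, 8 passed the filter on low counts. Of these, 3 were called higher and none lower, beside 11.9% and 9.48% of all genes. These were Il13, Lta and Tnf, and with any 1 library left out the number was 2 or 3. Lta and Tnf belong to the TNF family and not to the type 2 cytokines. Lta encodes lymphotoxin alpha (chromosome 17, 35203165 to 35205351, minus strand). It had 50.9 and 56.1 CPM on day 7, against 5.36 and 7.23 CPM on day 5 (log2 change 3.10 ± 0.28, adjusted p = 1.49e-06). Tnf had 8.23 and 10.8 CPM on day 7, against 3.81 and 4.11 CPM on day 5 (1.27 ± 0.34, 0.0114), a call lost without replicate b of day 7 (0.0976) or replicate a of day 5 (0.0846). Il4 had 3.47 and 3.46 CPM on day 7, against 0.846 and 1.70 CPM on day 5, which did not pass (1.44 ± 0.60, 0.0992). Il5 was filtered out before the test, with 5 and 56 counts on day 7 and 0 and 1 count on day 5, so its reads lay mostly in replicate b of day 7. Areg, which encodes amphiregulin, had 0 and 7 counts on day 7 and 0 and 3 counts on day 5.

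The TNF family list, which also holds Lta, had more rises, while 11.9% of all genes were called higher and 9.48% lower. Of 12 tested, 6 were called higher and 1 lower; without replicate b of day 7 it was 5 and none, and with any 1 library left out 3 to 6 were higher. Ltb, lymphotoxin beta, had 24.8 and 27.4 CPM on day 7, against 4.23 and 6.09 CPM on day 5 (log2 change 2.35 ± 0.27, adjusted p = 1.29e-05). Tnfsf14, which encodes LIGHT, had 25.3 and 16.5 CPM on day 7, against 7.34 and 7.23 CPM on day 5 (1.53 ± 0.29, 0.00134). Lta, Ltb and Tnfsf14 were steady, and their groups did not overlap.

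Cytotoxic genes moved in both directions, while 11.9% of all genes were called higher and 9.48% lower. Of 13 tested, 6 were called higher and 1 lower, and with any 1 library left out 3 to 6 were higher and 1 lower. Gzmb, granzyme B, had 352 and 414 CPM on day 7, against 41.0 and 44.8 CPM on day 5 (log2 change 3.17 ± 0.49, adjusted p = 0.000193). Gzma, granzyme A, was the gene that fell: it had 640 and 377 CPM on day 7, against 1106 and 1165 CPM on day 5 (-1.15 ± 0.18, 0.000182). Cd7, an early lymphoid surface protein, had 47.3 and 68.2 CPM on day 7, against 8.04 and 12.3 CPM on day 5 (2.52 ± 0.34, 5.72e-05). Gzmb, Gzma and Cd7 were steady. The NK factor Eomes had 3 and 0 counts on day 7 and 2 and 1 counts on day 5, and the NK receptor Ncr1 had 0 counts in both libraries of day 7. Of 4 genes of group 3 innate lymphoid cells tested, 2 were called higher and none lower, with a median log2 change of 2.12.

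Genes of early progenitors fell or did not pass, while 11.9% of all genes were called higher and 9.48% lower. Of 15 tested, none was called higher and 6 lower; 3 were lower without replicate b of day 7, and 3 to 7 with any 1 library left out. The median change was -1.23, or -0.83 without replicate b of day 7. Cd34, the stem and progenitor cell sialomucin, had 18.4 and 9.86 CPM on day 7, against 70.8 and 50.2 CPM on day 5 (log2 change -2.09 ± 0.31, adjusted p = 0.00017). Lyl1, a helix-loop-helix factor that partners E proteins in progenitors, had 7.85 and 4.26 CPM on day 7, against 48.8 and 19.6 CPM on day 5 (-2.48 ± 0.33, 5.72e-05). Bcl11a, a zinc finger factor of early progenitors and B cells, had 5.92 and 2.80 CPM on day 7, against 28.4 and 14.7 CPM on day 5 (-2.29 ± 0.34, 0.000153). These 3 were steady and their groups did not overlap. With the 4 floxed libraries fitted alone, Lyl1 (0.0674) and Bcl11a (0.0710) did not pass and Cd34 did. Replicate a of day 5, the library with the most myeloid marker RNA, was the highest of the 4 in each, and their calls passed without it. Spi1, which encodes PU.1, had 5.27 and 0.932 CPM on day 7, against 12.6 and 6.09 CPM on day 5 (-1.57 ± 0.54, 0.0464), and its call was lost without replicate b of day 7 (0.314) or replicate a of day 5 (0.352) and by DESeq2 (0.0530). Kit, the stem cell factor receptor, had 146 and 79.4 CPM on day 7, against 77.6 and 98.8 CPM on day 5, and the groups overlapped (0.36 ± 0.28, 0.375).

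Of 21 recombination and pre-TCR genes tested, 3 were called higher and 1 lower, shares near the 11.9% and 9.48% of all genes, with a median change of -0.12. Steady among them were Cd247, the CD3 zeta chain, and Txk, a Tec family kinase. Cd247 had 54.1 and 61.5 CPM on day 7, against 17.1 and 33.3 CPM on day 5 (log2 change 1.21 ± 0.22, adjusted p = 0.00075). Txk had 177 and 221 CPM on day 7, against 29.6 and 53 CPM on day 5 (2.28 ± 0.21, 1.59e-06). Dntt, the terminal transferase of V(D)J joining, had 14.2 and 11.2 CPM on day 7, against 28.5 and 31.2 CPM on day 5, which did not pass (-1.23 ± 0.44, 0.0565) but did by DESeq2 (0.0385) and with the libraries of days 5 and 7 only (0.0447). Cd3d had 15.6 and 16.1 CPM on day 7, against 14.7 and 27.9 CPM on day 5, with overlapping groups (-0.42 ± 0.31, 0.359). Among 7 T cell receptor constant genes, 4 were called higher and none lower, 2 to 4 with any 1 library left out. Trbc1 had 487 and 476 CPM on day 7, against 335 and 320 CPM on day 5 (0.57 ± 0.09, 0.000227). Tcrg-C1 rose by 1.48 ± 0.14 (2.69e-06), but the gamma constant genes are close copies and reads may be split between them. In the controls 4 of the 7 constant genes were also called higher and none lower, beside 6.56% and 6.35% of all genes. The median log2 change of the 7 was 0.48 in floxed cells and 0.49 in controls. The difference between the genotypes passed for 1 as higher in floxed cells and 1 as lower, beside 0.837% and 0.758% of all genes. Its median over the 7 was 0.02.

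Ikzf3 changed most among the T lineage factors. It encodes Aiolos (chromosome 11, 98464902 to 98546031, minus strand) and had 66.2 and 73.5 CPM on day 7, against 1.69 and 2.83 CPM on day 5 (log2 change 4.95 ± 0.51, adjusted p = 5.15e-06). Of the 14 T lineage specification genes tested, 5 were called higher and 2 lower, and with any 1 library left out 3 to 5 were higher. Of 12 Notch pathway genes, 1 was called higher and 2 lower, shares near the 11.9% and 9.48% of all genes. Nrarp, a Notch target that feeds back on the pathway, had 18.5 and 17.4 CPM on day 7, against 44.6 and 31.2 CPM on day 5 (-1.06 ± 0.20, 0.00105), and was steady. Notch1 had 48.0 and 26.0 CPM on day 7, against 60.5 and 67.3 CPM on day 5 (-0.78 ± 0.20, 0.00918), a call lost without replicate b of day 7 (0.156) or replicate b of day 5 (0.0632).

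Among the E protein partners, Id3 (chromosome 4, 136143497 to 136145755, plus strand) moved against Id2. It had 106 and 65.4 CPM on day 7, against 159 and 133 CPM on day 5 (log2 change -0.76 ± 0.17, adjusted p = 0.00375). The groups did not overlap, but the call was lost without replicate b of day 7 (0.0688) or replicate a of day 5 (0.0575). Tcf4, which encodes the third E protein E2-2, had 89.9 and 80.9 CPM on day 7, against 112 and 113 CPM on day 5 (-0.39 ± 0.09, 0.0066), lost without replicate b of day 7 (0.0608).

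**Figure D3:**
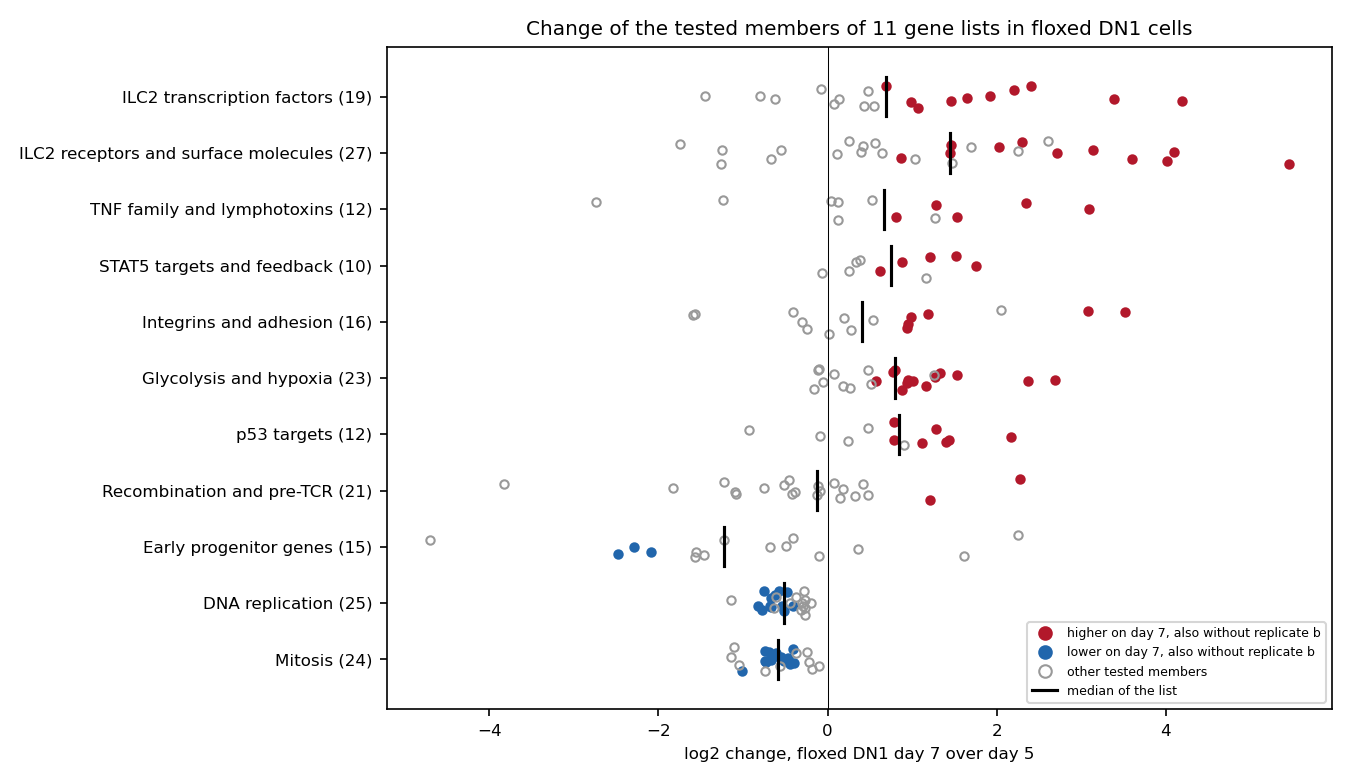
The log2 change between day 7 and day 5 in floxed DN1 cells (x axis) for each tested member of 11 gene lists (rows, with the number of members). Filled points passed with all libraries and without replicate b of day 7 and did not overlap between the days; the replication and mitosis lists lie left of 0 and the ILC2 lists mostly right of it.

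Genes of adhesion and homing rose in part, while 11.9% of all genes were called higher and 9.48% lower. Of 16 integrin and adhesion genes, 7 were called higher and none lower, 6 or 7 with any 1 library left out. Itgae, the alpha E integrin CD103, had 30.6 and 40.1 CPM on day 7, against 1.41 and 4.82 CPM on day 5 (log2 change 3.51 ± 0.41, adjusted p = 1.45e-05). Itgb3, the beta 3 integrin, had 116 and 412 CPM on day 7, against 11.8 and 51.3 CPM on day 5 (3.08 ± 0.57, 0.000928). Of 10 chemokine receptors, 4 were called higher and 1 lower, and 2 to 5 higher with any 1 library left out. Cxcr6, the receptor of CXCL16 on tissue-homing lymphocytes, had 32.4 and 52.4 CPM on day 7, against 0.141 and 2.83 CPM on day 5, where replicate a held 1 read (4.83 ± 0.78, 0.000301). Ccr2 had 396 and 186 CPM on day 7, against 57.6 and 103 CPM on day 5 (1.86 ± 0.29, 0.000226). The 4 genes named were steady. In the controls 6.56% of all genes were called higher and 6.35% lower. Of the 16 integrin and adhesion genes, 5 were called higher there and 1 lower, and of the 10 chemokine receptors 3 and none. The difference between the genotypes passed for 1 integrin or adhesion gene as higher in floxed cells, 1 as lower, and no chemokine receptor. Among all genes it passed for 0.837% as higher and 0.758% as lower.

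Targets of STAT5, the factor that IL-2 and IL-7 activate, rose in 6 of 10 genes tested, with none lower and 3 to 6 higher with any 1 library left out. The feedback inhibitor Cish had 78.6 and 149 CPM on day 7, against 40.6 and 39.5 CPM on day 5 (log2 change 1.52 ± 0.23, adjusted p = 0.000174). Socs1, also a feedback inhibitor, had 339 and 271 CPM on day 7, against 71.7 and 110 CPM on day 5 (1.76 ± 0.18, 5.65e-06). The survival gene Bcl2 had 443 and 443 CPM on day 7, against 232 and 253 CPM on day 5 (0.88 ± 0.10, 1.54e-05). All 3 were steady. In the controls 3 of the 10 STAT5 targets were called higher and none lower. No difference between the genotypes passed in this list, and the median log2 difference was 0.07. Over all genes, 11.9% were called higher and 9.48% lower in floxed cells, and 6.56% and 6.35% in controls. Of 14 genes of the Bcl2 family, 5 were called higher and 2 lower, beside 11.9% and 9.48% of all genes. In the controls 4 of them were called higher and 1 lower. The difference between the genotypes passed for 1 as higher and none as lower, beside 0.837% and 0.758% of all genes. The floxed risers held both protectors and killers. Bcl2l1 (Bcl-xL) rose by 1.19 ± 0.20, the death genes Bcl2l11 (Bim) by 0.82 ± 0.16 and Bbc3 (Puma) by 1.44 ± 0.15.

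Bbc3 is also a target of p53, and of 12 p53 targets tested 8 were called higher and 1 lower, 7 or 8 higher with any 1 library left out. Zmat3, a p53-induced RNA-binding protein, had 75.4 and 75.4 CPM on day 7, against 16.5 and 17.1 CPM on day 5 (log2 change 2.17 ± 0.15, adjusted p = 6.65e-08). Cdkn1a, the cell cycle inhibitor p21, had 178 and 203 CPM on day 7, against 74.6 and 70.4 CPM on day 5 (1.41 ± 0.14, 4.24e-06). Over all genes, 11.9% were called higher and 9.48% lower in floxed cells, and 6.56% and 6.35% in controls. In the controls 9 of the 12 p53 targets were called higher and none lower. Zmat3 had 67.8 and 66.8 CPM in controls of day 7 against 13.6 and 14.2 CPM on day 5, a log2 change of 2.20.

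Most genes of DNA replication and mitosis were called lower, while 9.48% of all genes were called lower and 11.9% higher. Of 25 replication genes 18 were called lower and none higher, 13 to 15 with any 1 library left out. Of 24 mitosis genes 18 were called lower and none higher, 12 to 17 with any 1 library left out. With the 4 floxed libraries fitted alone, none of either list passed. The changes were small, with medians of -0.52 and -0.59 on the log2 scale. Mcm6, a subunit of the replicative helicase, had 396 and 382 CPM on day 7, against 654 and 551 CPM on day 5 (-0.62 ± 0.11, adjusted p = 0.000557). Ccnb1, mitotic cyclin B1, had 106 and 125 CPM on day 7, against 194 and 195 CPM on day 5 (-0.74 ± 0.10, 7.08e-05). Cenpf, a kinetochore protein, had 103 and 87.1 CPM on day 7, against 138 and 155 CPM on day 5 (-0.62 ± 0.09, 9.92e-05). In the fit of 4 libraries the adjusted p was 0.111 for Mcm6, 0.0985 for Ccnb1 and 0.129 for Cenpf. The controls had 16 of the replication genes and 7 of the mitosis genes called lower, beside 6.35% of all genes. The median changes there were -0.40 and -0.27.

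Of 23 glycolysis and hypoxia genes tested, 15 were called higher and none lower in floxed cells, 13 to 16 with any 1 library left out and 5 with the 4 floxed libraries fitted alone, with a median change of 0.79. In the controls, 3 were called higher and 3 lower, with a median of 0.04. Over all genes, 11.9% were called higher and 9.48% lower in floxed cells, and 6.56% and 6.35% in controls. The glycolytic enzyme gene Eno1 had 209 and 173 CPM in floxed cells of day 7, against 59.4 and 73.1 CPM on day 5 (log2 change 1.53 ± 0.13, adjusted p = 3.93e-07). Ldha, lactate dehydrogenase A, had 739 and 873 CPM on day 7, against 503 and 452 CPM on day 5 (0.77 ± 0.10, 3.66e-05). Aldoa, aldolase A, had 328 and 384 CPM on day 7, against 167 and 154 CPM on day 5 (1.16 ± 0.13, 1.21e-05). These 3 were steady, but they have near-identical copies or processed pseudogenes that could share reads, and Aldoa is also a muscle enzyme; without replicate b of day 7 its change was 1.02 (0.00014). Bnip3, a hypoxia-induced mitochondrial protein, had 32.8 and 39.7 CPM on day 7, against 7.76 and 3.54 CPM on day 5 (2.69 ± 0.36, 6.24e-05). The glucose transporter genes Slc2a1 and Slc2a3 did not pass, at -0.11 ± 0.24 and -0.16 ± 0.31.

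The 15 genes with the largest rises by the naming rule were Tnfrsf9, Myo6, Ikzf3, Cxcr6, Homer2, Lgals3, Il18r1, Slc16a3, Jag1, Itgae, Gsn, Icos, Adam8, Gzmb and Tns4. The rule, also for the falls below, took only genes that passed with all libraries and without replicate b of day 7. That such genes were steady is therefore in part set by the rule. All 15 were steady, and 13 also passed with the 4 floxed libraries fitted alone, Lgals3 (adjusted p = 0.0553) and Tns4 (0.0854) being the exceptions. Myo6, an unconventional myosin, had 266 and 543 CPM on day 7, against 11.6 and 13.7 CPM on day 5 (log2 change 5.01 ± 0.50, adjusted p = 3.98e-06). Lgals3, galectin 3, had 1053 and 1701 CPM on day 7, against 19.6 and 117 CPM on day 5 (4.34 ± 0.53, 2.01e-05). Homer2, a scaffold protein, had 33.8 and 35 CPM on day 7, against 1.27 and 2.55 CPM on day 5 (4.17 ± 0.53, 3.98e-05). Slc16a3, the lactate exporter MCT4, rose by 3.65 ± 0.41, the Notch ligand gene Jag1 by 3.90 ± 0.44, the actin-severing Gsn by 3.44 ± 0.22, the metalloprotease Adam8 by 3.60 ± 0.32 and the focal adhesion gene Tns4 by 3.19 ± 0.53.

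The 15 genes with the largest falls were Arhgap6, Lyl1, Bcl11a, Adgrg1, Cd34, Loxl2, Angpt1, Alox5ap, Col1a2, Sgk3, Btk, Muc13, Ybx3, Pck2 and Fam185a, all steady but Alox5ap and Col1a2. With the 4 floxed libraries fitted alone, 13 of the 15 did not pass, among them Arhgap6 (adjusted p = 0.103), Adgrg1 (0.106) and Angpt1 (0.141), and the exceptions were Cd34 and Ybx3. Arhgap6, a GTPase-activating protein, had 5.02 and 1.07 CPM on day 7, against 30.5 and 12.3 CPM on day 5 (log2 change -2.79 ± 0.46, adjusted p = 0.000351). Adgrg1, the adhesion receptor GPR56, had 56.6 and 15.1 CPM on day 7, against 262 and 116 CPM on day 5 (-2.39 ± 0.37, 0.000222). Angpt1, angiopoietin 1, had 45.1 and 8.26 CPM on day 7, against 143 and 96.8 CPM on day 5 (-2.16 ± 0.41, 0.00116). In these 3, replicate b of day 7 was the lowest of the 4 libraries. Ybx3, a cold-shock protein that binds RNA, had 97.4 and 75.8 CPM on day 7, against 260 and 210 CPM on day 5 (-1.43 ± 0.17, 1.55e-05). Alox5ap, the 5-lipoxygenase activating protein, was lost without replicate a of day 5 (0.135). Col1a2, a collagen and itself 1 of the stromal markers whose sums are given above, fell by 1.86 on the log2 scale and was lost without replicate a of day 7 (0.132) or replicate b of day 5 (0.190).

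Between the same days, 6.56% of genes were called higher and 6.35% lower in control cells, or 996 and 964 genes. Of the 809 genes that rose in floxed cells by the stricter call, 321 were also called higher in the controls, 7 were called lower and 481 did not pass. Of the 505 that fell, 277 were called lower in the controls, 5 higher and 223 did not pass. The difference between the 2 changes, tested in the same fit, passed for 0.837% of genes as higher in floxed cells and 0.758% as lower, or 127 and 115 genes. Among the 809 rises, it passed as higher in 104 and as lower in 2, and did not pass in 703. Among the 505 falls, it passed as lower in 48 and did not pass in 457. Floxed and control libraries also differed in Xist, which had 1163 to 1634 CPM in the 4 floxed DN1 libraries and 6.67 to 15.2 CPM in the 4 control libraries. Genotype and the sex of the animals therefore cannot be told apart in this difference.

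Id2 and Id3 parted between the genotypes. Id2 had 147 and 143 CPM in controls of day 7, against 64.5 and 64.6 CPM in controls of day 5, a rise of 1.09 on the log2 scale (adjusted p = 0.00182). The floxed change exceeded it by 2.30 ± 0.29 (0.000688). Id3 had 251 and 284 CPM in controls of day 7, against 65.5 and 66.6 CPM in controls of day 5, a rise of 1.94 (2.70e-06), and the floxed change lay 2.70 below it (log2 difference -2.70 ± 0.24, 1.41e-05). Cd34 had 51.3 and 61.0 CPM in controls of day 7, against 25.9 and 27.9 CPM in controls of day 5, and the difference was -3.07 ± 0.43 (0.00155). In Id3 and Cd34 both floxed libraries of day 7 lay below those of day 5 and both control libraries of day 7 above those of day 5, although the control rise of Cd34 lost its call with any 1 control library left out (0.0973 to 0.198).

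Single genes of several lists rose further in floxed cells than in controls. Of the 12 TNF family genes only Lta differed as higher, and the median difference of the list was -0.12. Tnfrsf9 had 8.49 and 5.99 CPM in controls of day 7, against 3.26 and 3.67 CPM in controls of day 5, and the difference was 4.48 ± 0.68 (adjusted p = 0.00271). Lta had 14.9 and 9.61 CPM in controls of day 7, against 7.42 and 10.9 CPM in controls of day 5, and the difference was 2.76 ± 0.40 (0.0018). Ankrd6, an ankyrin repeat protein of Wnt signalling, had 29.1 and 54.6 CPM in floxed cells of day 7 and 4.94 and 4.39 CPM in floxed cells of day 5, against 5.82 and 8.36 CPM in controls of day 7 and 8.45 and 6.08 CPM in controls of day 5, and the difference was 3.28 ± 0.44 (0.000912). Of the 23 glycolysis and hypoxia genes, 7 differed as higher in floxed cells and none as lower, beside 0.837% and 0.758% of all genes. Among the 7 were Eno1 (1.14), Ldha (1.09) and Aldoa (1.13). These differences of named genes, and those of Id2, Id3 and Cd34, passed with any 1 of the 8 DN1 libraries of days 5 and 7 left out. With only those 8 libraries fitted, the calls of Id2 (0.0705), Ankrd6 (0.0605), Eno1 (0.0831), Ldha (0.0514) and Aldoa (0.0577) were lost. Icos, Il13 and Rora did not pass as differing, with log2 differences of 2.23 ± 0.70, 3.38 ± 3.06 and -0.60 ± 0.54 and adjusted p of 0.112, 0.618 and 0.618. The difference of Icos passed without floxed replicate b of day 5 (0.0165) or floxed replicate a of day 7 (0.0144). Rora in the controls had 53.2 and 45.7 CPM on day 7, against 6.82 and 9.37 CPM on day 5, a rise of 2.52 (0.000717).

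Cd3d, Cd3g and Dntt changed less upward in floxed cells than in controls, but each lost its call with single libraries left out. Cd3d had 180 and 152 CPM in controls of day 7, against 44.9 and 46.1 CPM in controls of day 5, and the difference of the floxed change was -2.21 ± 0.41 (adjusted p = 0.00861), lost without floxed replicate b of day 5 (0.0651). Dntt had 296 and 271 CPM in controls of day 7, against 87.2 and 74.7 CPM in controls of day 5, and the difference was -2.96 ± 0.58 (0.0121), lost without control replicate d of day 5 (0.0742) or floxed replicate b of day 7 (0.0505). Of the 21 recombination and pre-TCR genes, 9 were called higher in controls and none lower, beside 6.56% and 6.35% of all genes. The difference was called lower in floxed cells for 3 and higher for 1, beside 0.758% and 0.837% of all genes. Other named differences lost their call without single libraries. Those of Myo6 (4.66) and Olfm5 (-2.83) were lost without control replicate d of day 5 (0.0686 for each), and that of Olfm5 also without control replicate d of day 7 (0.0535). Those of Slc16a3 (3.59) and Slc7a8 (2.55) were lost without control replicate c of day 5 (0.0968 and 0.0570). That of Cd3g (-2.16) was lost without floxed replicate b of day 5 (0.140) or control replicate d of day 5 (0.0510). With only the DN1 libraries of both days fitted, the calls of Cd3d (0.0697), Cd3g (0.188) and Olfm5 (0.0577) were lost.

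**Figure D4:**
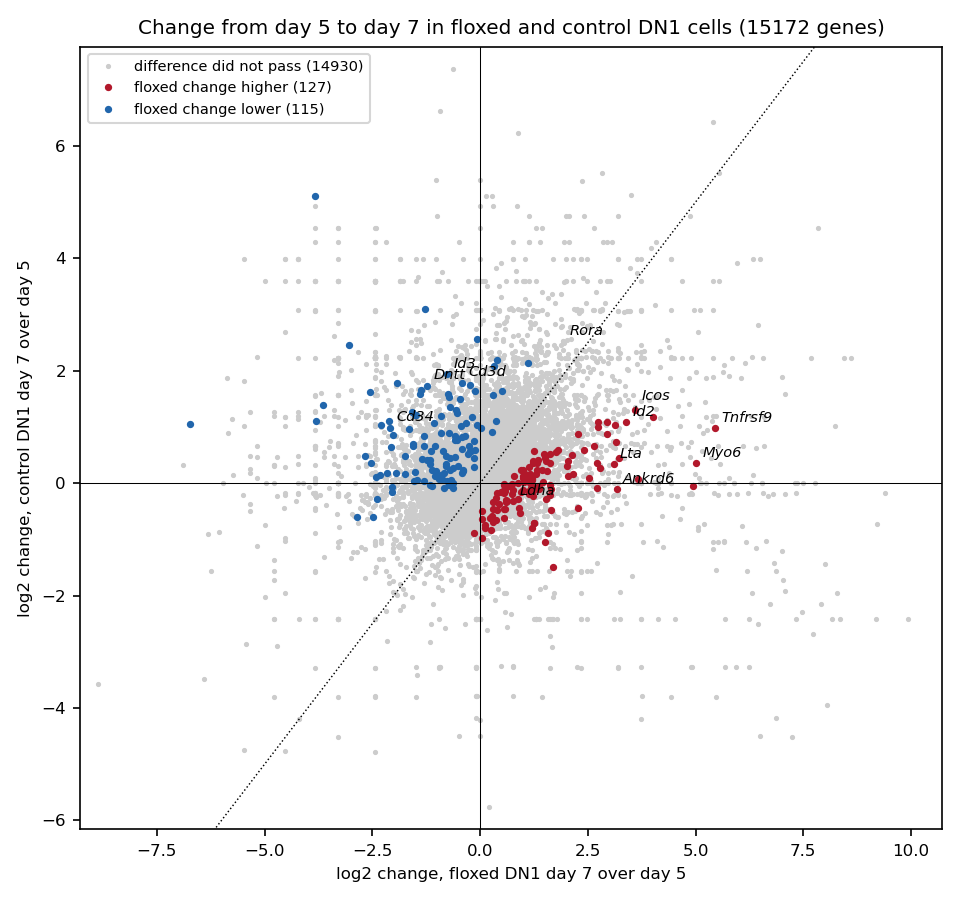
Each of 15172 genes by its log2 change between day 7 and day 5 in floxed DN1 cells (x axis) and in control DN1 cells (y axis), with the line of equal change dotted. Red genes (127) changed more upward in floxed cells and blue genes (115) less upward or downward; Tnfrsf9, Lta and Id2 lie right of the line and Id3, Cd3d and Cd34 left of it.

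Floxed DN3 cells over the same days had 13.5% of genes called higher and 11.1% lower. Of the 809 rises in DN1 cells, 577 were called higher in DN3 cells, 15 lower and 217 did not pass. Of the 505 falls, 314 were called lower in DN3 cells, 13 higher and 178 did not pass. The DN1 change differed from the DN3 change in 1.89% of genes as higher and 2.87% as lower. Among the 809 rises, this difference passed as higher in 74 and as lower in 61, and did not pass in 674. Among the 505 falls, it passed as higher in 12 and as lower in 42, and did not pass in 451. The marker genes were alike in direction: Id2 rose by 3.10 in DN3 cells, with 286 and 340 CPM on day 7 against 37.1 and 40.1 CPM on day 5. Icos rose by 4.34 and Il13 by 5.59, and the log2 differences between DN1 and DN3 were 0.29 ± 0.29, -0.74 ± 0.57 and -0.34 ± 1.19 for Id2, Icos and Il13, none past the threshold (0.640, 0.517 and 0.934). That of Id2 passed without DN1 replicate a of day 7 (0.0295).

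The genes that changed upward in DN1 cells relative to DN3 cells included Ikzf3 and Il7r. Ikzf3 had 45.9 and 49.5 CPM in DN3 cells of day 7, against 47.9 and 41.6 CPM in DN3 cells of day 5, so the DN1 cells of day 7, at 66.2 and 73.5 CPM, lay above the level of DN3 cells on both days. The difference of the changes was 4.78 ± 0.64 (adjusted p = 0.000175). Il7r had 10.3 and 13.5 CPM in DN3 cells of day 7, against 29.4 and 14.8 CPM in DN3 cells of day 5, a log2 change of -0.80 that was lost without DN3 replicate a of day 5 (0.622) or of day 7 (0.191), and the difference was 2.83 ± 0.35 (8.00e-05). Cd28 had 58.7 and 49.4 CPM in DN3 cells of day 7, against 122 and 122 CPM in DN3 cells of day 5, and the difference was 2.56 ± 0.43 (0.0016). Tubb2b, a beta tubulin whose reads may be shared with Tubb2a, and Ldhb, lactate dehydrogenase B, differed by 3.19 and 2.77, the second lost with only the floxed libraries of both days fitted (0.0821).

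The genes that changed downward in DN1 cells relative to DN3 cells were led by Emilin2. Emilin2, an extracellular matrix glycoprotein, had 98.0 and 103 CPM in DN1 cells of day 7 and 118 and 75.0 CPM in DN1 cells of day 5, against 86.2 and 61.7 CPM in DN3 cells of day 7 and 1.49 and 0.248 CPM in DN3 cells of day 5 (log2 difference -6.39 ± 0.53, adjusted p = 1.28e-06). Kit had 134 and 196 CPM in DN3 cells of day 7 against 9.55 and 12.1 CPM in DN3 cells of day 5, and the difference was -3.65 ± 0.42 (3.94e-05). Muc13, a transmembrane mucin, had 28.9 and 14.2 CPM in DN3 cells of day 7 against 2.48 and 1.86 CPM in DN3 cells of day 5, while it fell in DN1 cells, and the difference was -5.10 ± 0.55 (1.84e-05). Gzma had 4296 and 4838 CPM in DN3 cells of day 7 against 1771 and 2162 CPM in DN3 cells of day 5, a rise of 1.29, and the difference was -2.45 ± 0.25 (1.47e-05). Cysltr1 rose in both, by 2.71 in DN1 and 6.50 in DN3 cells, a difference of -3.78 ± 0.66 (0.00225) lost with only the floxed libraries of both days fitted (0.0849). The glucose transporter genes Slc2a1 and Slc2a3 rose by 2.17 and 3.13 in DN3 cells, and their differences of -2.27 ± 0.33 and -3.29 ± 0.44 passed (0.000408 and 0.000153). The differences named in these paragraphs passed with any 1 of the 8 floxed libraries of days 5 and 7 left out.

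**Figure D5:**
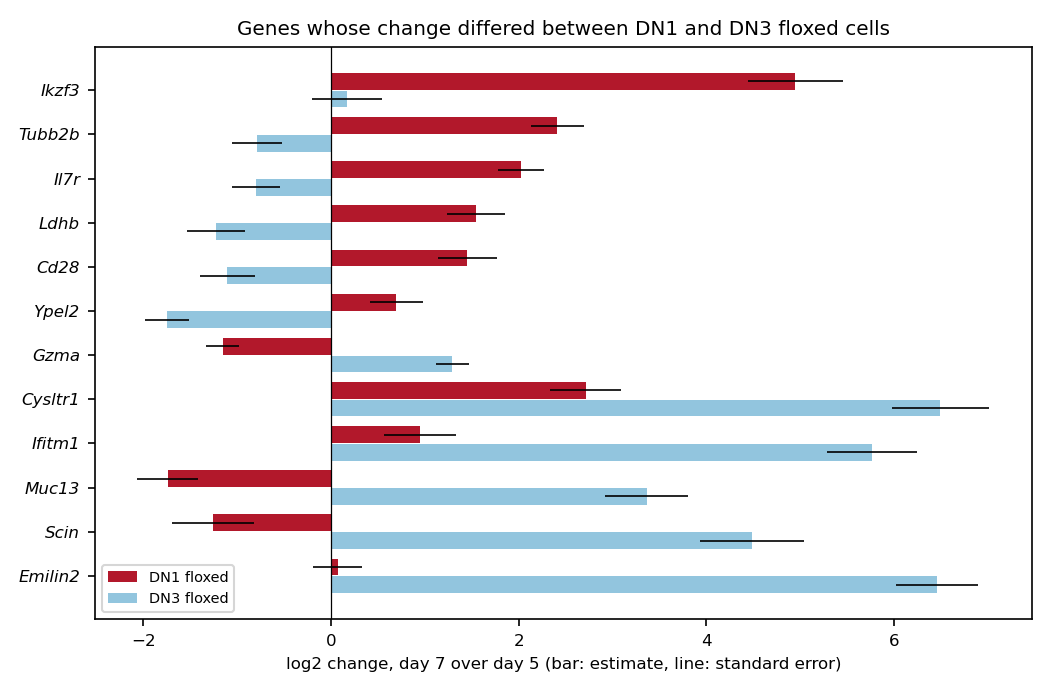
Log2 change between day 7 and day 5 (x axis) in floxed DN1 cells (red) and floxed DN3 cells (blue) for 12 genes whose changes differed; bars are estimates and lines standard errors. Ikzf3, Tubb2b, Il7r, Ldhb and Cd28 rose in DN1 cells, and the bars of Emilin2, Scin, Muc13, Ifitm1 and Cysltr1 extend further right in DN3 cells.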

How the data were processed

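RNA was extracted with Trizol and sequenced on an Illumina instrument, per the labels' protocols. The table deposited by the authors holds raw read counts per gene for 48881 gene IDs. The build mm10 and the tool DESeq2 stand in the submitters' processing notes without a version. Which aligner, counter, strand setting and annotation were used is not given in the sources used here. Symbols and positions came from GENCODE M21, which matched 48664 IDs.

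The counts of 24 culture libraries in 12 groups were fitted with edgeR 4.0.16 (R 4.3.3): filterByExpr with a minimum count of 10, TMM scaling, 1 coefficient per group and the quasi-likelihood test, with 12 residual degrees of freedom among samples and a common biological coefficient of variation of 0.138. This left 15172 genes, and p-values were adjusted over all of them (Benjamini-Hochberg). Floxed minus control and DN1 minus DN3 differences were contrasts of the same fit. Culture libraries held 5908459 to 10692186 counts, and intervals and limits for a count of 0 (3 counts) cover counting error only. CPM are counts scaled to the library total, not corrected for length, so levels were not compared between genes. The scripts were tested on simulated data. Tables and figures were made with Python 3.11.15, pandas 2.3.3, numpy 2.4.6 and scipy 1.17.1.

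The named genes were the 15 largest rises and the 15 largest falls that passed with all libraries and without replicate b of day 7 and did not overlap. They needed a mean of at least 20 CPM in the higher group, and for rises also in replicate a of day 7. They were ranked by the smaller of the 2 log2 changes, leaving out predicted genes, pseudogenes, receptor V, D and J segments and Xist and Y-linked genes. For each difference, 6 genes each way were named by a like rule. The other genes named came from gene lists. The groups, lists and genes were chosen with earlier results of these data known.

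The alternatives were DESeq2 1.42.0, DESeq2's size factors, days 5 and 7 only, no filter, only the groups compared, a replicate block and each library left out. Day 4 and DN3 control libraries entered only the fit, and the remaining samples were not analysed here, apart from 2 thymic ILC2 libraries whose levels are given. The result of 1 gene is not reported here.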

Additional observations from a re-analysis of the deposited data

Results flagged for a closer look

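The change between day 7 and day 5 differed between floxed and control DN1 cells, by the test of the difference itself (edgeR), in 17 of the genes named. The floxed change was higher, in log2 units, by 4.66 for Myo6, 4.48 for Tnfrsf9, 3.59 for Slc16a3, 3.28 for Ankrd6, 2.76 for Lta, 2.55 for the amino acid transporter gene Slc7a8, 2.30 for Id2, 1.14 for Eno1, 1.13 for Aldoa and 1.09 for Ldha. The difference was -3.07 for Cd34, -2.96 for Dntt, -2.83 for Olfm5, -2.70 for Id3, -2.45 for the tetraspanin gene Tspan2, -2.21 for Cd3d and -2.16 for Cd3g. The difference of Tspan2 was lost without floxed replicate a of day 5 (adjusted p = 0.0589), control replicate c of day 5 (0.0600), control replicate d of day 5 (0.0541) or control replicate c of day 7 (0.0524), and with only the DN1 libraries of both days fitted (0.184). Xist separates the genotypes in these libraries, as given above.

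The same change differed between floxed DN1 and floxed DN3 cells in 19 of the genes named, by the same test. The DN1 change was higher by 4.78 for Ikzf3, 3.19 for Tubb2b, 2.83 for Il7r, 2.77 for Ldhb, 2.56 for Cd28 and 2.44 for Ypel2. The difference was -6.39 for Emilin2, -5.74 for the actin-severing gene Scin, -5.23 for the kinase gene Btk, -5.10 for Muc13, -4.81 for the interferon-induced Ifitm1, -4.77 for the short-chain fatty acid receptor gene Ffar2, -3.78 for Cysltr1, -3.65 for Kit, -3.29 for Slc2a3, -2.45 for Gzma, -2.27 for Slc2a1, -1.96 for Cdkn1a and -1.66 for Nrarp. The difference of Btk was lost without DN3 replicate b of day 7 (adjusted p = 0.266) or DN3 replicate a of day 5 (0.0566). That of Ffar2 was lost without DN3 replicate b of day 7 (0.179), DN3 replicate a of day 5 (0.0762), DN3 replicate b of day 5 (0.0941) or DN1 replicate a of day 5 (0.0538). With only the floxed libraries of both days fitted, the differences of Ypel2 (0.0617), Btk (0.112) and Ffar2 (0.121) were lost. Groups of 2 libraries allow no check for single outlying samples.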

How the results depend on the processing

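With only the groups compared in the fit, 133 genes passed between day 7 and day 5 in floxed DN1 cells, against 3249 with all culture libraries. The same choice gave 4261 against 1960 in controls, 22 against 242 for the floxed minus control difference and 78 against 723 for the DN1 minus DN3 difference. Without a filter on low counts the differences passed for 922 and 1253 genes. That fit of 29760 genes gave an infinite prior degrees of freedom (6.72 with the filter), so each gene took the spread of the trend in place of its own, and the call gained only there, that of Icos for DN1 minus DN3, is not given as a result. DESeq2 gave 444 for floxed minus control, and days 5 and 7 alone gave 148. Leaving out 1 library gave 1458 to 5458 genes in floxed DN1 cells, 703 to 1025 in controls, 2149 to 3059 in floxed DN3 cells (3725 with all), 64 to 2315 for floxed minus control and 307 to 2408 for DN1 minus DN3, the highest counts each time without replicate a of floxed DN1 day 7 where that library entered. DESeq2, its size factors and days 5 and 7 alone left the floxed DN1 count within 1.5 times. The causes were not tested. Over the 189 gene values given, 1860 alternative values kept their direction and call, 169 lost the call, 24 gained it and none turned round. Gene list counts without each of the 3 libraries other than replicate b of day 7 were chosen after seeing the data.

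The letters are shared by the groups, but no label says that a letter marks an animal or culture. The difference between replicates a and b on day 7 correlated with that on day 5 at r = -0.053 across genes in floxed DN1 cells, -0.008 for letters c and d in controls and 0.187 in floxed DN3 cells. With no such label and no common sign, the letters were not taken to pair samples. With a replicate block, 3041 genes passed in floxed DN1 cells, 1887 in controls, 255 for floxed minus control, 3567 in floxed DN3 cells and 663 for DN1 minus DN3. Among named genes, the block gave calls to Tcf3 (adjusted p = 0.000957), Dntt (0.0192) and Ifitm1 (0.0309) in floxed DN1 cells and Ffar2 in DN3 cells (0.00686), and ended those of Eno1 in controls (0.0515) and Tubb2b in DN3 cells (0.0614).

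Limits are 2 libraries a group, their unknown source, muscle transcripts in 1 of them and a spread borrowed from the other culture groups. Il5 and Areg were left out by the filter on low counts.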

Other observations

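Immediate early genes, which respond to stimulation within minutes, were called higher on day 7 in 8 of 18 tested and lower in none, 4 to 9 with any 1 library left out, with a median log2 change of 0.65. Jun, an AP-1 subunit, had 59.2 and 44.1 CPM on day 7, against 24.8 and 22.5 CPM on day 5 (log2 change 1.13 ± 0.22, adjusted p = 0.00157, edgeR). Dusp1, a phosphatase of MAP kinases, had 110 and 129 CPM on day 7, against 46.1 and 59.4 CPM on day 5 (1.19 ± 0.22, 0.000871). Both passed with any 1 of the 4 libraries left out, and so did Fosl2, a further AP-1 subunit, which rose by 1.77. Ahr, the aryl hydrocarbon receptor, had 118 and 163 CPM on day 7, against 34.0 and 30.5 CPM on day 5 (2.14 ± 0.28, 4.44e-05). The groups did not overlap in any of these genes. In the controls 6 of the 18 immediate early genes were called higher and none lower, and no difference between the genotypes passed in this list. Over all genes, 11.9% were called higher and 9.48% lower in floxed cells, and 6.56% and 6.35% in controls.

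Neb, the muscle protein nebulin, was 1 of 17 muscle markers that passed without the library with muscle RNA. It had 19.4 and 201 CPM in floxed DN1 cells of day 7, against 1.55 and 2.55 CPM on day 5. Floxed DN3 cells had 105 and 163 CPM on day 7, against 2.85 and 5.08 CPM on day 5, and the thymic ILC2 libraries had 108 and 278 CPM. Several genes of innate lymphoid cells had reads mostly in replicate b of day 7: Ptgdr2, the prostaglandin D2 receptor of ILC2, had 1 and 36 counts on day 7, against 0 and 1 on day 5, and Klrk1, which encodes NKG2D, had 8 and 39 counts on day 7, against 0 and 1 on day 5. Both were left out by the filter on low counts.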
